A study of Rattus norvegicus with 31 samples.

Results

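The genes described here are Wars2 and 8 other nuclear genes for mitochondrial aminoacyl-tRNA synthetases (Aars2, Ears2, Fars2, Hars2, Iars2, Lars2, Mars2 and Nars2). They were chosen by symbol, with earlier results of these data known. Of the 9 genes, 8 were found by symbol in the table of 19100 RefSeq genes, which held the recombinant inbred strains. Mars2 was found there only under its RefSeq gene number, as LOC100911305. In the table of 46063 genes that the authors assembled from their reads, which held both progenitor strains, 12911 symbols stood alone on an assembled gene, 6 of the 9 members among them (Wars2, Aars2, Ears2, Fars2, Iars2 and Nars2). Lars2 shared its assembled gene with Limd1, and the names Hars2 and Mars2 were carried by no assembled gene used here.

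Total RNA depleted of ribosomal RNA was sequenced from left ventricles of naive, untreated male rats of the HXB/BXH recombinant inbred panel. The progenitors were SHR/OlaIpcv, the spontaneously hypertensive rat, with 4 animals, and BN-Lx/Cub, a normotensive Brown Norway congenic strain, with 4 animals, all in sequencing batch 1. The 12 HXB strains (substrain Ipcv) and 9 BXH strains (substrain Cub) are inbred mosaics of both progenitor genomes from reciprocal crosses. Each had 1 library, in batch 2 (3 HXB and 3 BXH strains) or batch 3 (9 HXB and 6 BXH strains). SHR replicate 4 was sequenced again in later batches. No age was given for the animals. Values were log2 expression levels as deposited, without counts, so the depth of each library is unknown. It is not known whether the values are per length, and a gene or transcript called leading, abundant or low below is so in the deposited values only. In bulk tissue, fewer cells of a type and less RNA per cell cannot be told apart.

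Aminoacyl-tRNA synthetases attach each amino acid to its transfer RNA. Mitochondria carry their own genome, which encodes core subunits of the respiratory chain and the mitochondrial transfer RNAs, whereas the synthetases that charge these transfer RNAs are encoded in the nucleus and imported. Heart muscle depends heavily on oxidative phosphorylation, and inherited defects of several of these enzymes, Aars2 among them in humans, cause cardiomyopathy. Wars2, the mitochondrial tryptophanyl-tRNA synthetase, has also been described as a determinant of blood vessel growth in the rat heart.

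Short stretches before the annotated gene start are shown for Wars2 and Fars2, the members that differed between SHR and BN-Lx. They were read from the RefSeq promoter windows of the GRCr8 assembly, which reach from 250 bases before to 50 bases after the gene start and were found for all 9 members. The capitals mark GCATGCGC in Wars2, part of the recognition sequence of NRF1, a transcription factor of nuclear genes for mitochondrial proteins, and AAGATGGCG in Fars2, which holds the core of the YY1 motif.
Wars2, GRCr8 chr2:189150269-189150336, plus strand: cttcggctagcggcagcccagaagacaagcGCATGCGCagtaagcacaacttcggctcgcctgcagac
Fars2, GRCr8 chr17:28951556-28951624, minus strand: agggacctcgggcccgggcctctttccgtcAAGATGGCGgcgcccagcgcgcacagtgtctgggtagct
GCATGCGC started 62 bases before the start of Wars2, and Wars2 was the 1 member of 9 that held it on either strand. Among 27457 genes with such a window, 2.77% held it. The sequence AAGATGGCG started 43 bases before the start of Fars2 and occurred in the windows of 2 members (Wars2 and Fars2), against 1.99% of all genes. The ETS motif CCGGAAG was in the windows of Hars2 and Iars2 (9.63% of all genes), and CCAAT in those of Ears2 and Iars2 (39.6%). These are matches of letters in the reference assembly and do not show binding. The sequences of SHR and BN-Lx were not compared.

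The first comparison asked how the expression of these genes differed between SHR and BN-Lx. Of the 6 members with an assembled gene of their own, Wars2 and Fars2 fell in SHR, 0 rose and 4 did not pass (limma, adjusted p under 0.05 over all 46063 genes). The background was 6.95% of all assembled genes called lower and 7.38% called higher in SHR, or 14.3% in either direction. Among the 12911 genes with a symbol of their own, 9.42% were called lower. The median log2 difference of the 6 members was -0.07, against 0.01 over all assembled genes. SHR and BN-Lx did not overlap in 2 of 6 members, against 20.6% of all assembled genes.

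Wars2 (PRN7.71G0048404, rn7 chromosome 2, 186459744 to 186548035, plus strand, 18 exons over all its assembled transcripts) had log2 values of 8.83, 8.79, 8.84 and 8.70 in SHR and of 9.17, 9.18, 9.03 and 9.18 in BN-Lx. All 4 SHR animals were below all 4 BN-Lx animals, and the gap between the groups was wider than the range within either. Wars2 averaged 8.79 ± 0.06 in SHR and 9.14 ± 0.07 in BN-Lx (SD, n = 4 each). Wars2 thus fell by 0.35 on the log2 scale in SHR (SE 0.09, limma adjusted p = 0.0167), to 0.784 times the BN-Lx level. With SHR replicate 4 left out it stood at -0.32 and no longer passed (adjusted p = 0.0585), nor did it pass when the variance was fitted without an intensity trend (adjusted p = 0.0732).

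Fars2, the mitochondrial phenylalanyl-tRNA synthetase, had log2 values of 10.32, 10.26, 10.06 and 10.25 in SHR and of 10.94, 10.63, 10.70 and 10.55 in BN-Lx. Here too every SHR animal was below every BN-Lx animal, with the lowest BN-Lx value 10.55 and the highest SHR value 10.32. The means were 10.22 ± 0.11 in SHR and 10.70 ± 0.17 in BN-Lx (SD, n = 4 each), and Fars2 fell by 0.48 on the log2 scale (SE 0.10, limma adjusted p = 0.00528), to 0.717 times the BN-Lx level. Fitted without the intensity trend, it missed the threshold (adjusted p = 0.0524). The gene lies on rn7 chromosome 17 (28319215 to 28746217, minus strand) and spans 427.003 kb. A second assembled gene of the same name, made of a single transcript with 2 exons and 47131 bases, was lower by 0.20 in SHR without passing (SE 0.10, adjusted p = 0.217). Its levels were 9.15 ± 0.18 in SHR and 9.34 ± 0.06 in BN-Lx.

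**Figure D1:**
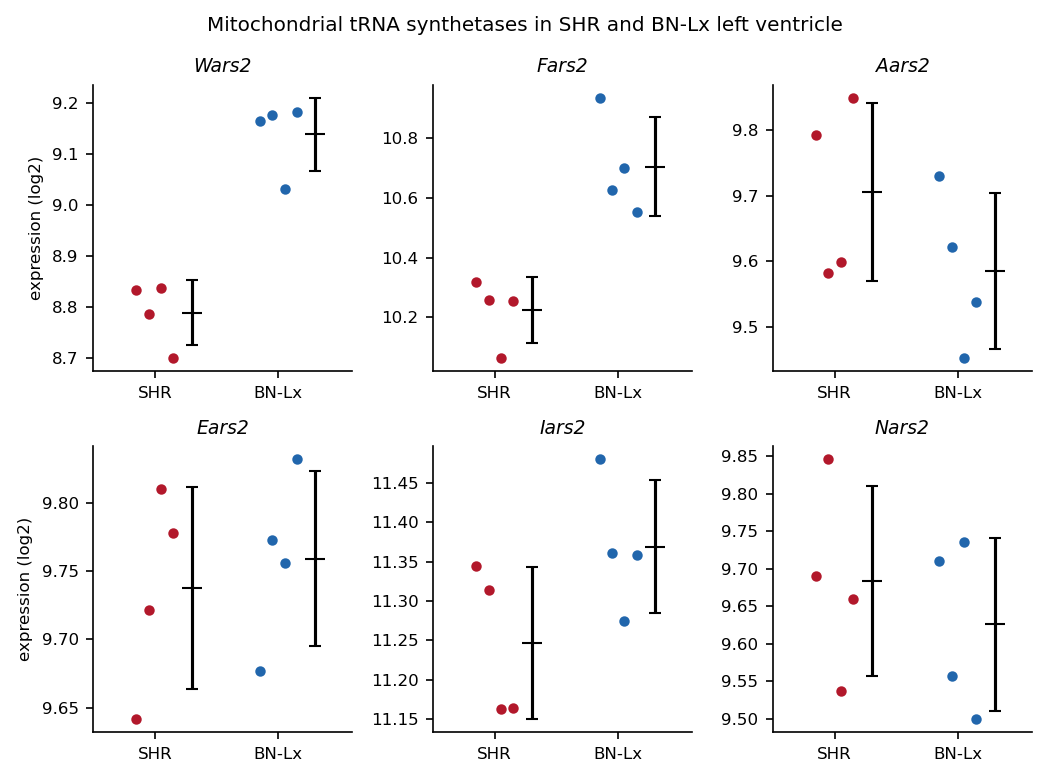
Expression (log2, as deposited) of the 6 members with an assembled gene of their own, in 4 SHR and 4 BN-Lx animals. Points are animals, and bars give the mean and SD of each group. In Wars2 and Fars2 all SHR points lie below all BN-Lx points, and in the other members the groups overlap. The axes start above 0 and differ between panels.

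The other 4 members overlapped between the progenitors. Aars2 (alanine) averaged 9.71 ± 0.14 in SHR and 9.59 ± 0.12 in BN-Lx, a log2 difference of 0.12 (SE 0.10, adjusted p = 0.438). Ears2, which charges the transfer RNAs for glutamate and, before correction to glutamine, for glutamine, averaged 9.74 ± 0.07 in SHR and 9.76 ± 0.06 in BN-Lx (-0.02, SE 0.08, adjusted p = 0.890). Iars2 (isoleucine) averaged 11.25 ± 0.10 in SHR and 11.37 ± 0.08 in BN-Lx (-0.12, SE 0.08, adjusted p = 0.313). Nars2 (asparagine) averaged 9.68 ± 0.13 in SHR and 9.63 ± 0.12 in BN-Lx (0.06, SE 0.09, adjusted p = 0.730). That these 4 tests missed the threshold does not show that the levels were equal.

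The transcripts show on which isoforms the gene values rest. The members had 30 assembled transcripts in all, of which 2 passed the test, both lower in SHR, and 7 had an unadjusted p under 0.05. The background was 2.81% of 91969 assembled transcripts called lower in SHR and 5.53% in either direction. SHR and BN-Lx did not overlap in 9 of the 30, against 15.8% of all assembled transcripts. The 2 called transcripts were the most abundant ones of Wars2 and of Fars2.

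The leading transcript of Wars2 (PRN7.71T0429605, matched by the authors to ENSRNOT00000026458, 6 exons and 2666 bases) had log2 values of 7.96, 7.79, 7.61 and 7.70 in SHR and of 8.45, 8.43, 8.22 and 8.44 in BN-Lx. The groups did not overlap, and it fell by 0.62 (SE 0.15, limma adjusted p = 0.0425). Of the other 6 Wars2 transcripts, a form with 4 exons (PRN7.71T0429607) differed by -0.38 (adjusted p = 0.242) and one with 3 exons (PRN7.71T0429604) by -0.69 (adjusted p = 0.183), both without overlap between the strains. The remaining 4 Wars2 transcripts overlapped, with differences from -0.43 to 0.70.

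For Fars2 the leading transcript (PRN7.71T0287853, ENSRNOT00000108459, 8 exons and 1815 bases) had log2 values of 10.14, 9.96, 9.64 and 9.89 in SHR and of 10.81, 10.45, 10.60 and 10.36 in BN-Lx. It fell by 0.65 (SE 0.15, limma adjusted p = 0.0404) with no overlap between the strains. Both transcript calls were near the threshold: each was lost in 7 of the 8 fits that left out 1 animal, all except the fit without SHR replicate 1, with log2 differences between -0.68 and -0.57 for Wars2 and between -0.72 and -0.56 for Fars2, and without the intensity trend.

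Lars2, the mitochondrial leucyl-tRNA synthetase, could be read in the progenitors only through its transcripts, because its gene carried a second name. Its leading transcript (PRN7.71T0094099, 21 exons) was between 10.11 and 10.52 in SHR and between 10.57 and 10.84 in BN-Lx. The strains did not overlap, but the difference of -0.41 (SE 0.13) did not pass (limma adjusted p = 0.104). The assembled gene shared by Lars2 and Limd1, which encodes a LIM domain protein, differed by -0.06 (SE 0.08, adjusted p = 0.666). The leading transcript of Aars2 was higher in SHR by 0.64 (SE 0.23, adjusted p = 0.158) and that of Iars2 lower by 0.18 (SE 0.11, adjusted p = 0.416), neither past the threshold. Other transcripts of the same genes had differences of the opposite sign: one of Aars2 (PRN7.71T0464359) was at -2.10 without overlap (SE 0.79, adjusted p = 0.173), and the second of Lars2 (PRN7.71T0463642) at 1.54 (SE 0.83, adjusted p = 0.330).

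**Figure D2:**
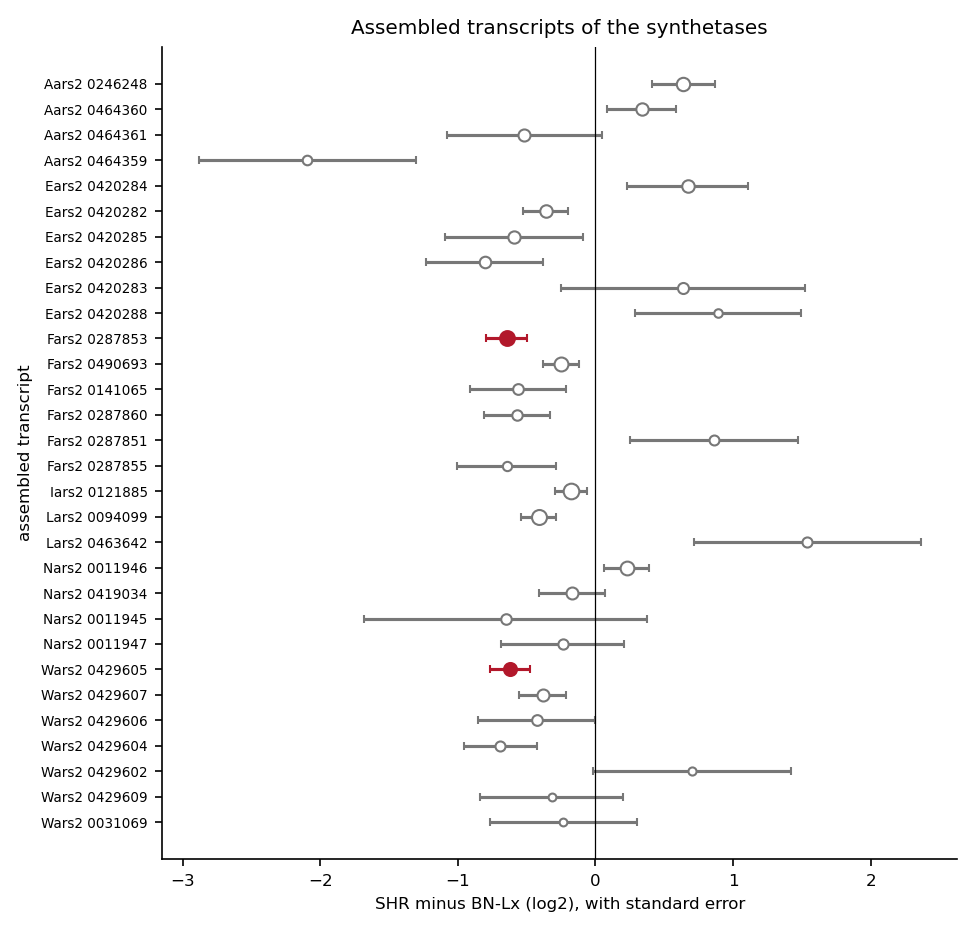
Difference between SHR and BN-Lx (log2) of each of the 30 assembled transcripts of the members, with its standard error. Larger points have a higher mean level, and filled points passed the test. The 2 filled points are the leading transcripts of Fars2 and Wars2, at -0.65 and -0.62, and transcripts at low levels have the widest errors.

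Related genes give the setting of these values. Of 7 other mitochondrial synthetases with an assembled gene, Sars2 (serine) fell by 0.72 in SHR (SE 0.12, limma adjusted p = 0.00156), with 8.39 in SHR and 9.11 in BN-Lx. Pars2 (proline) rose by 0.90 (SE 0.27, adjusted p = 0.0410), with 7.51 in SHR and 6.61 in BN-Lx, but did not pass when any SHR animal or BN-Lx replicate 1 was left out (0.84 to 0.95, adjusted p from 0.0595 to 0.0969), and it differed by 0.57 without BN-Lx replicate 3. The other 5 did not pass, and their median with these 2 was -0.17. Gars1 and Kars1, which serve cytosol and mitochondria alike, did not pass. Of 19 genes of the cytosolic synthetases and their complex, 1 fell and 0 rose: Iars1 (isoleucine, cytosol) fell by 0.32 (SE 0.08, adjusted p = 0.0145). The cytosolic partners of the 2 called members did not pass, with Wars1 at 0.10 (adjusted p = 0.547), Farsa at -0.10 (adjusted p = 0.530) and Farsb at -0.23 (adjusted p = 0.0989).

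Genes that act on the same transfer RNAs or on mitochondrial ribosomes were read from the same fit. None of the 4 genes of the amidotransferase that completes glutaminyl-tRNA and of the formyltransferase that makes the initiator passed (limma, 0 of 4, with 0 at an unadjusted p under 0.05). Of 15 genes of mitochondrial transfer RNA processing and modification, 3 fell: Nfs1, the cysteine desulfurase that supplies sulphur for thiolation, by 0.31 (adjusted p = 0.0181), Trmt10c, a subunit of mitochondrial RNase P, by 0.33 (adjusted p = 0.0344), and Trnt1, which adds the CCA end, by 0.34 (adjusted p = 0.0390). Of 12 translation factors, 2 fell. They were Mtrfr, a ribosome rescue factor, by 0.55 (adjusted p = 0.00427) and Tufm, the elongation factor that carries charged transfer RNAs to the ribosome, by 0.30 (adjusted p = 0.0211). Of these, Nfs1 missed the threshold without BN-Lx replicate 3, SHR replicate 3 or SHR replicate 4 (-0.29 to -0.27), Trmt10c without 5 single animals (-0.33 to -0.29), Tufm without BN-Lx replicate 1 or SHR replicate 2, 3 or 4 (-0.28 to -0.26) and Trnt1 without 5 single animals (-0.38 to -0.29). Of 8 genes of mitochondrial DNA maintenance and transcription, 0 passed, and 1 had an unadjusted p under 0.05 (Tfb2m, adjusted p = 0.0534).

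Genes of general mitochondrial function included further calls. Of 9 genes chosen for mitochondrial content, Vdac1 (outer membrane channel) fell by 0.33 and Hspd1 (chaperonin) by 0.29 (limma adjusted p = 0.0103 and 0.00972), and all 9 had a negative difference. Neither Vdac1 nor Hspd1 passed without the intensity trend, and Hspd1 also missed the threshold with all groups in the fit. The log2 of their summed levels was between 16.27 and 16.49 in SHR and between 16.52 and 16.55 in BN-Lx, without overlap. Of 12 targets of the integrated stress response, which uncharged transfer RNAs can switch on, 1 rose and 0 fell: Sesn2, a stress-induced inhibitor of growth signalling, by 0.56 (SE 0.10, adjusted p = 0.00261). The part of mitochondrial content in the Wars2 and Fars2 differences was not tested.

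Markers of cell types and the spike-in RNAs also moved between the progenitors. Of 7 cardiomyocyte markers 2 fell (Tnnt2, not past the threshold without any of 5 single animals, and Tnni3) and 0 rose, with a log2 summed level of 20.33 to 20.51 in SHR and 20.40 to 20.66 in BN-Lx. Of 11 endothelial markers 6 rose, among them Eng and Cdh5, and 1 fell (Vwf), with 16.06 to 16.19 in SHR and 16.01 to 16.06 in BN-Lx. Of 5 macrophage markers 3 fell, with 12.04 to 12.28 in SHR and 12.36 to 12.50 in BN-Lx, and the lowest mean level of a macrophage marker was 7.77. The mean spike-in level was 6.37 to 6.82 in SHR and 6.95 to 7.85 in BN-Lx (log2; exact permutation p = 0.0286, two-sided, the smallest that 4 against 4 allows). With this level as a covariate, Wars2 was at -0.27 (adjusted p = 0.304) and Fars2 at -0.59 (adjusted p = 0.0547), and 1849 of 46063 genes were called. Among the other called synthetases and genes of transfer RNA processing, translation, mitochondrial content and stress response, Pars2 and Nfs1 still passed with this covariate. Sars2, Iars1, Trmt10c, Trnt1, Mtrfr, Tufm, Vdac1, Hspd1 and Sesn2 did not. The spike-in level did not overlap between the strains, so that level and strain cannot be told apart, and the part of the markers in these differences was not tested.

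The neighbourhood of Wars2 was compared in the same fit. Within 1 Mb of the gene on rn7 chromosome 2 lay 15 other assembled genes with a single name, of which 4 passed, all lower in SHR. The background called lower was 6.95% of all assembled genes and 9.42% of genes with a symbol of their own. Only 9 of the 15 had a mean level over 5, and of the called genes only Sec22b was among these. Sec22b, which encodes a SNARE of transport between endoplasmic reticulum and Golgi, starts 959.751 kb before Wars2. It averaged 9.75 ± 0.04 in SHR and 10.07 ± 0.10 in BN-Lx, without overlap, and fell by 0.32 (SE 0.08, limma adjusted p = 0.0177). It did not pass with SHR replicate 4 (-0.31) or BN-Lx replicate 3 (-0.28) left out. Nor did it pass with all groups in the fit, without the intensity trend or with the spike-in level as a covariate. That covariate also removed the calls of the other 3 genes (limma adjusted p from 0.319 to 0.394). The other 3 were at low levels: Hao2 (a peroxisomal hydroxyacid oxidase) had 2.28 ± 0.15 in SHR and 4.05 ± 0.96 in BN-Lx, Hsd3b5 (a hydroxysteroid dehydrogenase) had 2.47 ± 0.43 in SHR and 4.20 ± 0.85 in BN-Lx, and a small 2-exon gene named Zfp697 had 2.69 ± 0.58 in SHR and 4.21 ± 0.25 in BN-Lx. A second 2-exon gene of that name with the same start and end had 3.05 ± 0.56 in SHR and 2.26 ± 1.67 in BN-Lx (0.79, adjusted p = 0.470), so reads could be split between them, and the Zfp697 gene with 18 exons differed by -0.06 (adjusted p = 0.796). The nearest named gene after Wars2, the transcription factor gene Tbx15, starts 116.603 kb away and did not pass (0.68, SE 0.34, adjusted p = 0.209), at 1.78 ± 0.42 in SHR and 1.10 ± 0.35 in BN-Lx.

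**Figure D3:**
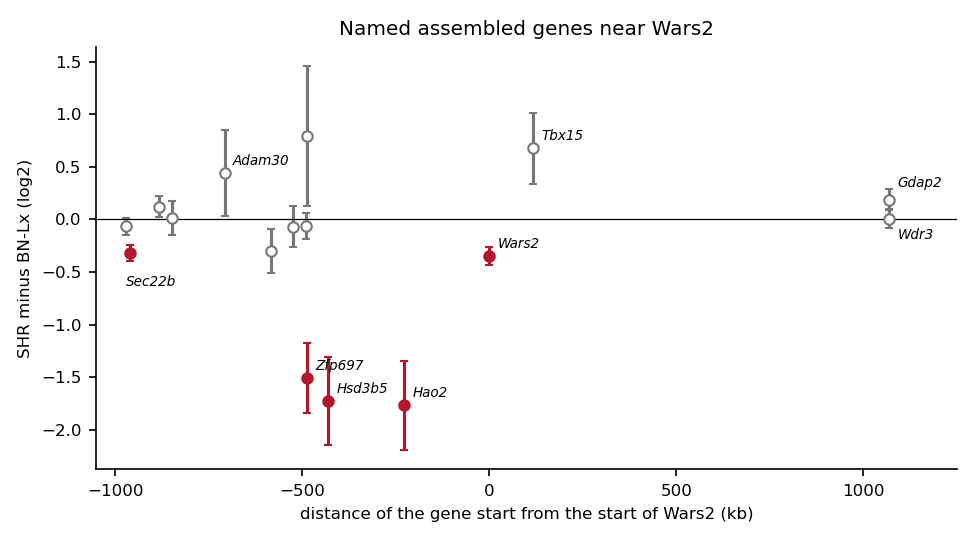
Difference between SHR and BN-Lx (log2, with standard error) of the 16 assembled genes with a single name within 1 Mb of Wars2, against the distance of each gene start from the start of Wars2 in kb. Filled points passed the test, and open points did not. Wars2 (-0.35) and Sec22b (-0.32) have narrow errors, and the 3 points below -1.5 are genes at low levels.

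The second comparison asked whether the 12 HXB and 9 BXH strains, which carry mixtures of the same alleles, differed as families. Of the 9 members, counting Mars2 under its gene number, 3 fell in HXB (Fars2, Lars2 and Mars2), 0 rose and 6 did not pass (limma with batch as covariate, adjusted over 19100 genes). The background was 17.8% of all RefSeq genes called lower and 18.5% called higher in HXB, or 36.3% in either direction, so calls between the families were common. The families overlapped in all 9 members, and 0.204% of RefSeq genes did not overlap.

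Fars2 was lowest at 10.41, with a median of 10.60 and a highest value of 10.87, in HXB, and 10.71, 10.90 and 11.16 in BXH. HXB strains filled the lower part of the range, and no BXH strain was under 10.71. The means were 10.63 ± 0.13 in HXB and 10.92 ± 0.15 in BXH (SD, n = 12 and 9), and Fars2 fell by 0.30 (SE 0.06, limma adjusted p = 0.00079). Within batch 3 the difference was -0.34 (adjusted p = 0.00246), and within batch 2, with 3 strains a family, it was -0.20 (adjusted p = 0.602).

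Lars2 had a lowest value of 10.55, a median of 10.69 and a highest value of 10.84 in HXB, and 10.71, 10.80 and 10.95 in BXH. It fell by 0.12 (SE 0.04, limma adjusted p = 0.0172). Within batch 3 the difference was -0.11 (adjusted p = 0.0828), past the threshold no longer, and within batch 2 it was -0.15 (adjusted p = 0.643). Mars2, the mitochondrial methionyl-tRNA synthetase, ran from 8.38 over a median of 8.59 to 8.72 in HXB and from 8.62 over 8.75 to 8.94 in BXH. It fell by 0.20 (SE 0.05, adjusted p = 0.0033), with -0.21 within batch 3 (adjusted p = 0.00778) and -0.19 within batch 2 (adjusted p = 0.671).

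Wars2 did not differ detectably between the families. It ran from 8.30 over a median of 8.57 to 8.68 in HXB and from 8.26 over 8.52 to 8.73 in BXH, with a difference of 0.04 (SE 0.07, limma adjusted p = 0.694). Both families thus covered nearly the same range. Hars2 (histidine) differed by 0.03 (SE 0.04, adjusted p = 0.625), with 10.65 ± 0.05 in HXB and 10.62 ± 0.12 in BXH. Iars2 differed by -0.05 (adjusted p = 0.390), Nars2 by -0.09 (adjusted p = 0.192), Aars2 by -0.14 (adjusted p = 0.170) and Ears2 by -0.14 (adjusted p = 0.0725). In the assembled table Aars2 (-0.30), Iars2 (-0.21) and Nars2 (-0.21) passed (limma adjusted p = 0.0318, 0.0203 and 0.0167). Calls were common there too, with 12871 of 46063 assembled genes called between the families in either direction. Ears2 passed when genes with a mean under 8 were left out (adjusted p = 0.0487).

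**Figure D4:**
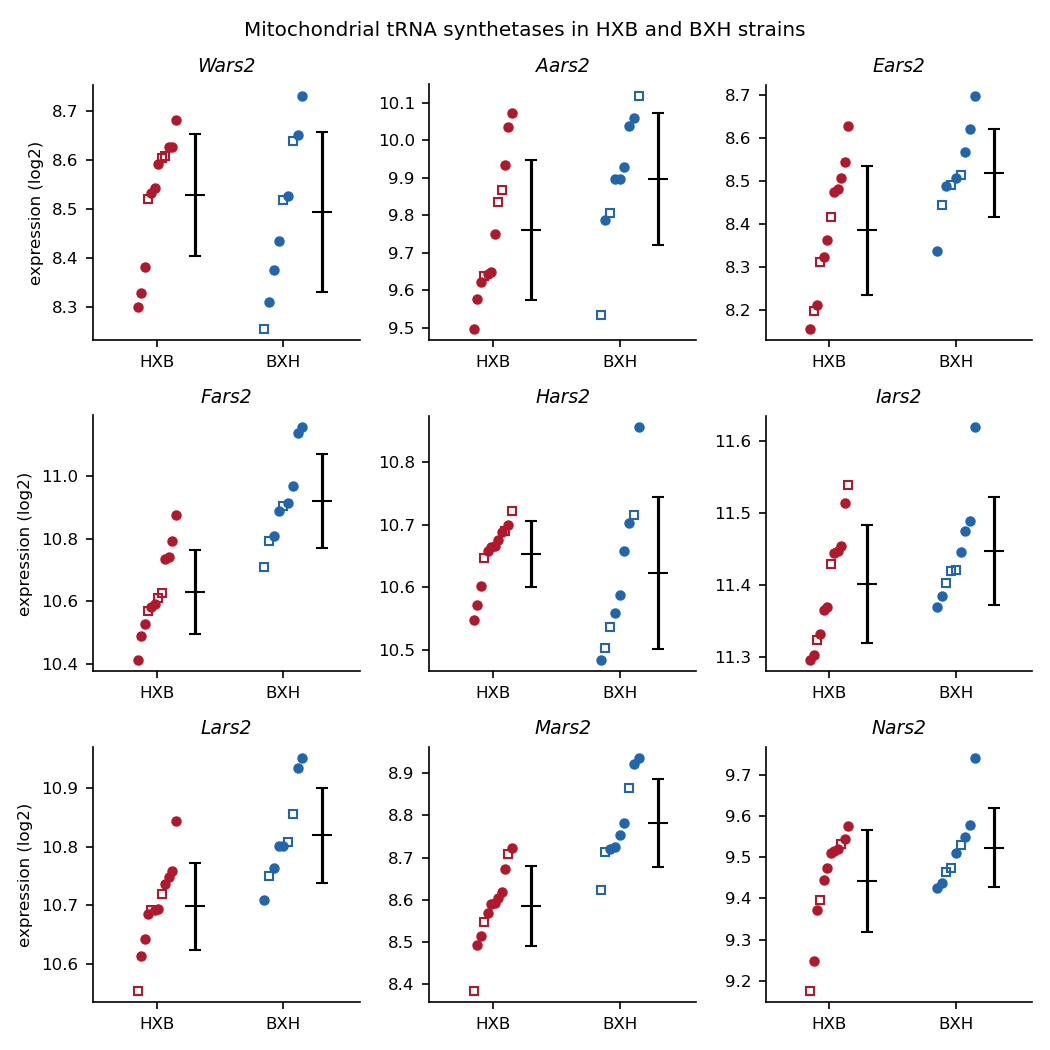
Expression (log2, as deposited) of the 9 members in 12 HXB and 9 BXH strains, 1 library a strain, in the RefSeq table. Filled circles are libraries of batch 3 and open squares of batch 2, and bars give the mean and SD of each family. Fars2, Lars2 and Mars2 are shifted down in HXB with overlap, and Wars2 covers the same range in both families. The axes start above 0 and differ between panels.

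Of 20 RefSeq transcripts of the members, 4 passed, all lower in HXB, against 8.63% of 39592 transcripts called lower and 19% called in either direction. They were the leading transcript of Fars2 (XM_006253825.3, -0.34, SE 0.07, limma adjusted p = 0.00346), the measured transcript of Lars2 (XM_008766727.3, -0.22, SE 0.06, adjusted p = 0.0167), that of Mars2 (XM_003750699.5, -0.22, SE 0.06, adjusted p = 0.0147) and a form of Nars2 (XM_039105949.1, -1.02, SE 0.26, adjusted p = 0.0110). The Nars2 form had 5.38 ± 0.71 in HXB and 6.36 ± 0.59 in BXH. The leading transcript of Wars2 (NM_001168641.1) had 8.05 ± 0.13 in HXB and 8.07 ± 0.17 in BXH, a difference of -0.02 (SE 0.08, adjusted p = 0.863).

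Measures of the libraries themselves moved with the families. The mean spike-in level was 6.63 to 7.01 in HXB and 6.78 to 7.93 in BXH (permutation p = 0.00032, two-sided, 100000 permutations). The score of a library along the difference between the later libraries of SHR replicate 4, which are repeat libraries of the same animal, was -0.49 to 1.15 in HXB and -0.997 to 0.36 in BXH (permutation p = 0.0011). Over the 21 libraries the score had a Pearson r of -0.82 with Fars2, -0.83 with Mars2, -0.63 with Aars2, -0.58 with Lars2, -0.55 with Ears2, -0.44 with Iars2, -0.14 with Nars2, 0.16 with Wars2 and 0.30 with Hars2, as a description. Members that did not pass between the families were thus among those related to it. With the score as a second covariate, chosen after seeing the data, Fars2 was at -0.13 (limma adjusted p = 0.662), Lars2 at -0.10 (0.659) and Mars2 at -0.070 (0.788). With the spike-in level in its place the values were -0.23 (0.410), -0.16 (0.361) and -0.17 (0.447). Under either covariate 0 of 19100 genes were called, with 1570 and 2006 at an unadjusted p under 0.05, so that family and library measure cannot be told apart in these calls.

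Markers of cell types and of mitochondrial content moved between the families too, in the same fit. Of 9 cardiomyocyte markers 4 fell in HXB, among them Myl3 (-0.47, limma adjusted p = 0.00038) and Tnni3 (-0.28, adjusted p = 0.00568), and 1 rose, with a log2 summed level of 21.27 to 21.76 in HXB and 21.48 to 21.87 in BXH. Of 7 macrophage markers 3 fell and 0 rose, with 12.36 to 12.74 in HXB and 12.55 to 12.89 in BXH. Of 6 mesothelial markers 4 fell and 0 rose, with 9.65 to 10.20 in HXB and 9.79 to 10.67 in BXH. Of 11 endothelial markers 3 rose and 3 fell, and of 7 erythroid markers 0 passed, although all 7 had a negative difference. Of 9 genes of mitochondrial content 3 fell and 2 rose, with 16.89 to 17.03 in HXB and 16.91 to 17.11 in BXH. The part of these markers in the differences of Fars2, Lars2 and Mars2 was not tested.

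The other mitochondrial synthetases were called in both directions. Of 8 other mitochondrial synthetases, Sars2 (-0.36, limma adjusted p = 0.00965), Cars2 (cysteine, -0.25, adjusted p = 0.00508) and Tars2 (threonine, -0.22, adjusted p = 0.0190) fell in HXB and Rars2 (arginine, 0.30, adjusted p = 0.00193) rose. Rars2 did not pass in the assembled table, where Sars2 and Cars2 did. Sars2 and Fars2 were thus lower both in SHR against BN-Lx and in HXB against BXH, and so were Nfs1 and Tufm. In contrast, Trnt1 and Hspd1 were lower in SHR (-0.34 and -0.29) and higher in HXB (0.40 and 0.20). How many of all genes were lower in both was not counted. Of the 4 genes of amidotransferase and formyltransferase, Gatb (-0.24, adjusted p = 0.00151) and Gatc (-0.23, adjusted p = 0.000388) fell, and of 20 cytosolic genes 5 fell and 3 rose. All these calls of mitochondrial genes between the families were lost with the score or the spike-in level as a covariate.

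Across the 21 strains the members varied by different amounts. The range was 0.74 for Fars2, 0.62 for Aars2, 0.56 for Nars2, 0.55 for Mars2, 0.54 for Ears2, 0.47 for Wars2, 0.40 for Lars2, 0.37 for Hars2 and 0.32 for Iars2 (log2). Of all RefSeq genes 3.97% had a smaller SD over the strains than Iars2, 29.9% a smaller one than Wars2 and 61.7% a smaller one than Fars2. The later libraries of SHR replicate 4, made from the same animal, differed by 0.13 for Wars2, by 0.004 for Fars2, by 0.22 for Mars2 and by 0.02 to 0.07 for the other members. Neighbouring strains in the order of Wars2 differed by less than this repeat difference and are not distinguished.

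Wars2 was lowest in BXH5 (8.26) and highest in BXH8 (8.73), and the values between them formed a series whose widest gap was 0.08. The later libraries of SHR replicate 4 had 8.26 and 8.39, which placed the lower of them above 1 strain and the higher above 6 strains of 21. For Fars2 these libraries had 10.27 and 10.28, below all 21 strains, whose lowest was HXB29 (10.41) and whose highest was BXH8 (11.16). Lars2 in SHR (10.48 and 10.51) was also below all 21 strains. The lower and the higher SHR library stood above 0 and 1 strains for Ears2 and likewise for Mars2. These counts were 0 and 4 for Iars2, 3 and 8 for Hars2 and 6 and 7 for Aars2. Nars2 in SHR (9.69 and 9.72) was above 20 of 21. In the assembled table, however, the later SHR library had 9.70 for Nars2 and stood above only 13 of the 21 strains. In the assembled table Wars2 averaged 8.79 ± 0.06 in SHR, 8.97 ± 0.11 in HXB, 9.03 ± 0.21 in BXH and 9.14 ± 0.07 in BN-Lx. Library medians over all genes ran from 3.99 to 4.73 in the assembled table and from 7.89 to 7.97 in the RefSeq table (log2). The part of the library medians in the Wars2 means of these 4 groups was not tested. These SHR and BN-Lx means are of batch 1 and those of the strains of batches 2 and 3. The later SHR replicate 4 library in the assembled table had 8.76 for Wars2, against 8.70 for the same animal in batch 1, and stood above 1 of the 21 strains. BN-Lx was in batch 1 alone, so for BN-Lx strain and batch cannot be told apart.

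The values of a member in the assembled and the RefSeq table come from the same reads. Their Spearman rho over the 21 strains was 0.99 for Fars2, 0.88 for Aars2, 0.87 for Ears2, 0.83 for Wars2, 0.78 for Iars2 and 0.62 for Nars2, as a description. Hars2, Lars2 and Mars2 were not compared in this way, with no assembled gene read for them alone.

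Genes most like Wars2 over the 21 strains, by the absolute Spearman rho after centring within batch, were Otulin (0.81), Sec22b (0.80), Lgals8 (0.80), Mrpl13 (0.80) and Ogdhl (-0.79). Otulin (a deubiquitinase of linear ubiquitin) and Sec22b lie on chromosome 2 in GRCr8, as Wars2 does. Lgals8 encodes a galectin, Mrpl13 a protein of the mitochondrial ribosome and Ogdhl a form of oxoglutarate dehydrogenase. For Sec22b the rho was 0.86 within the 15 strains of batch 3 and 0.71 within the 6 of batch 2, and it was 0.73 among HXB and 0.60 among BXH strains. Sec22b ran from 9.25 to 9.82 over the strains and differed by 0.07 between the families (SE 0.07, limma adjusted p = 0.483). These genes were picked as the highest of 19099, so the values are a description.

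The members differed in how many genes they resembled. At an absolute rho over 0.8 there were 1537 genes for Mars2, 1441 for Fars2, 443 for Aars2, 188 for Lars2, 19 each for Ears2 and Hars2, 3 for Wars2, 2 for Iars2 and 0 for Nars2. The members with most such genes, Mars2 and Fars2, were those with the strongest relation to the library score given above.

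**Figure D5:**
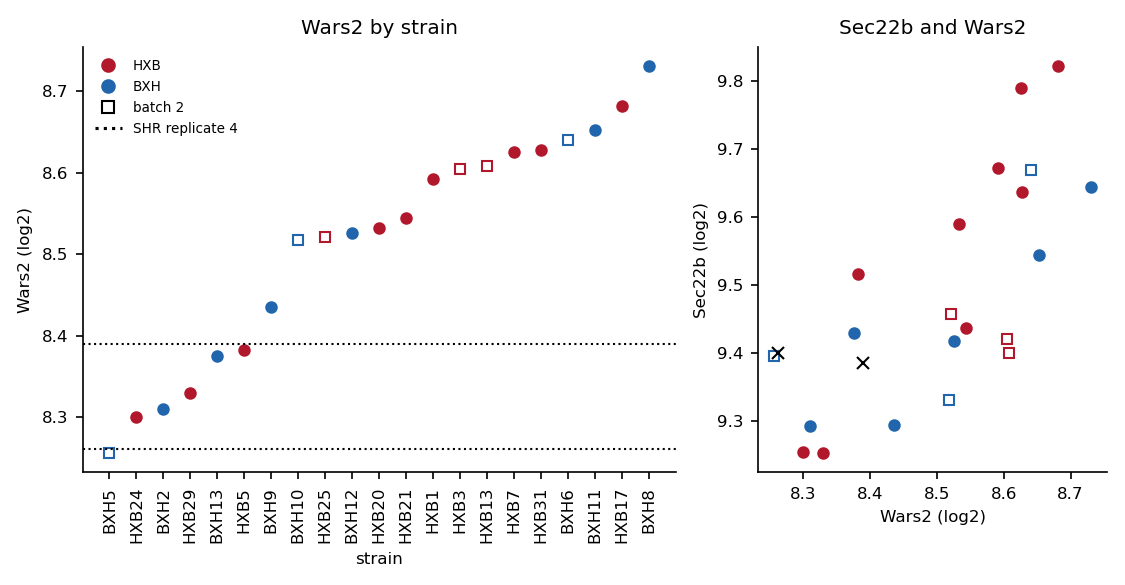
Left, Wars2 (log2) in the 21 recombinant inbred strains in order of its level, with HXB and BXH in 2 colours, open squares for batch 2 and dotted lines at the later libraries of SHR replicate 4 (8.26 and 8.39). Right, Sec22b against Wars2 (both log2) in the same strains, with crosses for the SHR libraries. Strains of both families are spread along the whole order of Wars2, and Sec22b is higher where Wars2 is higher.

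Whether the members varied together over strains was tested in their 36 pairs, on values centred within batch (permutation tests with 100000 permutations, two-sided, Benjamini-Hochberg adjusted over the 36 pairs). By Pearson's r 4 pairs passed, all positive, and all among Ears2, Fars2, Lars2 and Mars2. Each of these 4 members was related to the library score given above (r from -0.83 to -0.55), and Fars2, Lars2 and Mars2 were called lower in HXB. Families were not held apart in the permutations, so a shared difference between HXB and BXH enters these r and p-values. The parts of the score and of the family difference in the pairs were not tested. Fars2 and Lars2 had r = 0.72 and rho = 0.70 (permutation p = 0.00024 and 0.00058, adjusted p = 0.00792 and 0.00696), with r = 0.66 without the 2 strains farthest from the median of Fars2. Ears2 and Lars2 had r = 0.69 and rho = 0.77 (permutation p = 0.00044 and 0.00012, adjusted p = 0.00792 and 0.00432), with r = 0.81 without the 2 farthest strains. Fars2 and Mars2 had r = 0.66 and rho = 0.72 (permutation p = 0.0012 and 0.00045, adjusted p = 0.0144 and 0.00696), with r = 0.72 without them. Ears2 and Fars2 had r = 0.60 and rho = 0.62 (permutation p = 0.00424 and 0.00346, adjusted p = 0.0382 and 0.0311), with r = 0.50 without them.

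Within batches these relations kept their sign: r was 0.75, 0.63, 0.74 and 0.60 in batch 3 and 0.70, 0.93, 0.50 and 0.60 in batch 2 for the pairs in the order given. Within families they were smaller in most cases. Fars2 and Lars2 had r = 0.15 among HXB and 0.83 among BXH strains, and Fars2 and Mars2 had 0.38 among HXB and 0.01 among BXH strains. Ears2 and Lars2 had 0.54 among HXB and 0.65 among BXH strains, and Ears2 and Fars2 had 0.38 among HXB and 0.44 among BXH strains. The pooled values of Fars2 with Lars2 and with Mars2 therefore did not hold in both families.

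Wars2 passed with none of the other 8 members. Its r ran from -0.34 (with Aars2) to 0.47 (with Hars2), with a median of 0.06, and the pair with Hars2 had a permutation p of 0.0335 and an adjusted p of 0.101. Among HXB strains r was -0.78 with Aars2, -0.65 with Iars2, 0.64 with Hars2 and 0.62 with Nars2. Among BXH strains these were 0.20, 0.35, 0.39 and 0.27. With Ears2, Fars2, Lars2 and Mars2, r ran from -0.27 to 0.24 among HXB and from -0.40 to 0.62 among BXH strains. Wars2 and Aars2 had r = -0.62 in batch 3 and 0.44 in batch 2. Over the 28 pairs without Wars2 the median r was 0.35. Hars2 and Mars2 were the pair with the lowest r, -0.51 (permutation p = 0.0197, adjusted p = 0.0787), and by rho, -0.59, this pair passed (adjusted p = 0.0361).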

How the data were processed

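Total RNA was sequenced from 31 left ventricle libraries. The submitters' processing notes list, with no roles, the build rn7 and the tools RSEM 1.3.1, StringTie 1.3.5, DESeq2, HISAT2 2.1.0, cutadapt 1.9.1 and Bowtie2 2.3.4.3. The deposited values are log2 levels. The transformation is not given in the sources used here, and without counts no interval can be given. Spike-in RNAs (70 in the assembled and 69 in the RefSeq tables) were kept out of all tests.

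The progenitors were set against each other in the assembled tables, which held BN-Lx, and the families in the RefSeq tables. Where several assembled genes carried only 1 symbol, the one of highest mean stood for it. The libraries numbered SHR replicate 4 were taken as the same animal. Of its 3, no table used held all, and later ones entered no main comparison. Their column names give a batch number that does not match the labels. Litters are not labelled, and p-values between the progenitors measure only the spread between these animals. Between the families and in the pairs of members, p-values measure the spread between strains. With 1 library a strain, strain and animal cannot be told apart there. For the library score, each library's deviations from the gene means were regressed, over genes of mean level above 8, on the differences between the later SHR replicate 4 libraries, and the slope was kept.

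Comparisons used limma 3.58.1 (lmFit, eBayes with trend) in R 4.3.3, two-sided, with Benjamini-Hochberg adjustment over the whole table and a threshold of 0.05, and batch as covariate for the families. Fits were tested on simulated data. Permutation tests and figures used Python 3.11.15, numpy 2.4.6, pandas 2.3.3, scipy 1.17.1 and matplotlib 3.10.9. Promoter windows and gene numbers are those of RefSeq for GRCr8.

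Named genes were all 9 members, up to 2 called genes of each other list, taken by smallest p, the 5 RefSeq genes most like Wars2, and called single-named genes within 1 Mb of it. The cytosolic partners, Farsb, Tfb2m, Trnt1, Tbx15, the transcripts described, Gars1, Kars1, Limd1 and genes of the lists called between the families were named after their values were seen. Members and lists were chosen with earlier results of these data known.

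Alternatives were the trend, quantile normalization, median centring, a filter on low values, left-out animals, a replicate block, other libraries in the fit, the batch term, single batches and other annotations. Covariates for the spike-in level and the score were added after seeing the data.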

Additional observations from a re-analysis of the deposited data

Results flagged for a closer look

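In 25 groups of 4 or 9 values (members, and the leading transcripts of Wars2 and Fars2), 4 had a value far from the others by Dixon's criterion, which flags about 1 in 20 groups by chance. Wars2 in BN-Lx replicate 3 (9.03) was below the other 3 BN-Lx animals, the nearest of which had 9.17, and its leading transcript was low in the same animal (8.22, against a nearest value of 8.43). The gene and the transcript share reads, so these count as 1 observation. This value lies toward SHR, and without it Wars2 differed by -0.39 between SHR and BN-Lx. Iars2 was high in BXH12 (11.62, against a nearest BXH value of 11.49), and Nars2 was high in BXH8 (9.74, against 9.58).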

How the results depend on the processing

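Wars2, lower in SHR by 0.35 in the main comparison, kept its direction in 16 alternatives and its call in 13. It was lost without the intensity trend (-0.35, adjusted p = 0.0732), with the spike-in covariate (-0.27, adjusted p = 0.304) and without SHR replicate 4, and ran from -0.39 to -0.32 when single animals were left out. Fars2 in SHR kept its direction in 17 alternatives and its call in 14. It was lost without the trend (-0.48, adjusted p = 0.0524), with the spike-in covariate (-0.59, adjusted p = 0.0547) and in the second assembled gene of its name (-0.20, adjusted p = 0.217), and ran from -0.53 to -0.40 without single animals. The called assembled genes numbered 6603, against 3916 with all groups in the fit, 1849 with the spike-in covariate, 4377 to 6114 without single animals (4377 without SHR replicate 4) and 5437 with a replicate block. For transcripts 5083 were called, against 1893 with the replicate block and 3018 to 3722 without single animals. The correlations of the deviations of same-numbered SHR and BN-Lx animals were 0.08, -0.12, -0.07 and 0.01, against -0.15 to 0.19 for animals of different numbers. With 4 animals a strain, these values cannot show whether same-numbered animals shared more than a number. Under the block Wars2 (adjusted p = 0.0443) and Fars2 (0.00841) were called, and their leading transcripts were not (0.125 and 0.0886).

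Between the families 6940 genes were called, against 12871 of 46063 in the assembled table, 0 within batch 2, and 0 with the score or the spike-in covariate. In batch 2 (0 called by limma, 1561 at an unadjusted p under 0.05), Fars2 was at -0.20, Lars2 at -0.15 and Mars2 at -0.19. With the score they were at -0.13, -0.10 and -0.070, and with the spike-in level at -0.23, -0.16 and -0.17, none of them past the threshold. Lars2 also missed it within batch 3 (-0.11). In the assembled table Aars2, Iars2 and Nars2 passed as well, at -0.30, -0.21 and -0.21. Pairs of members past the threshold numbered 4, against 8 after median centring and 8 within batch 3. The mean of the libraries of SHR replicate 4 used 2 of 3. The planned fit on the earlier assembled table was not run, since it could not be fitted without BN-Lx columns and gene names. The cause of these changes was not tested, except that batch 2 alone and single animals left out leave fewer samples. The unknown depth limits what can be said of genes at low levels.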

Other observations

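Cell types other than those given above moved as follows between SHR and BN-Lx, in the same limma fit. Of 5 mesothelial markers, 4 fell and 0 rose, with Msln at -1.04 (adjusted p = 0.00051) and Upk3b at -1.07 (adjusted p = 0.000328), and the log2 summed level was 10.03 to 10.29 in SHR and 10.37 to 10.55 in BN-Lx. Of 9 lymphocyte markers, Gzmb (-1.21, adjusted p = 0.000102) and Cd79b fell and Cd8a (0.83, adjusted p = 0.0322) rose. Of 7 pericyte and smooth muscle markers 3 rose, among them Acta2 (0.58, adjusted p = 0.00945) and Abcc9 (0.20, adjusted p = 0.0340), with sums of 14.38 to 14.43 in SHR and 14.18 to 14.29 in BN-Lx. Among the macrophage markers Cd163 was at -0.65 and Cd14 at -0.52 (adjusted p = 0.000866 and 0.0134). Of 8 fibroblast markers Col1a1 (0.45, adjusted p = 0.0269) rose and Dcn (-0.25, adjusted p = 0.0457) fell, of 4 atrial markers Myl7 (1.11, adjusted p = 0.0330) rose and Myl4 (-0.97, adjusted p = 0.0106) fell, and of 6 Schwann cell markers S100b (0.84, adjusted p = 0.0329) rose. The calls of Cd8a, Abcc9, Col1a1, Dcn, Myl7 and S100b were each lost without 4 or more of the 8 single animals (Cd8a 0.68 to 0.83, Abcc9 0.19 to 0.21, Col1a1 0.36 to 0.42, Dcn -0.29 to -0.22, Myl7 0.84 to 1.16 and S100b 0.75 to 0.86 in those fits). Of 2 adipocyte and 4 erythroid markers 0 passed.

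Between HXB and BXH, 5 of 11 genes of mitochondrial DNA maintenance and transcription rose in HXB and 3 fell (limma), with Ssbp1, the mitochondrial single-strand binding protein, at 0.32 (adjusted p = 0.000848). Of 14 mitochondrial translation factors 4 rose, among them Mtif2, an initiation factor (0.42, adjusted p = 0.00122), and 5 fell, among them Tsfm, an elongation factor (-0.29, adjusted p = 0.000434). Of 14 targets of the integrated stress response 4 fell and 0 rose, among them Sesn2 (-0.26, adjusted p = 0.0119), which had risen in SHR against BN-Lx. As in the members, no gene of any list was called with the score or the spike-in level as a covariate. These genes were named after their values were seen.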
